A study of Rattus norvegicus with 8 samples.

Results

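Transcripts of axons and neurons were followed in rat sciatic nerve tissue through 10 genes chosen by symbol, namely Uchl1, Nefl, Nefm, Nefh, Stmn2, Tubb3, Prph, Sncg, Gad1 and Ina, out of 32545 genes in the table of values. The 10 genes were picked with their levels in these same libraries already known, so their differences between groups are described here without a test. The tissue came from outbred female Sprague Dawley (Envigo) rats of 3-6 months. It comprised 3 PEG-fused peripheral nerve allografts (PEG PNAs), 3 negative control allografts that received no PEG (NC PNAs), and 2 unoperated nerves (Unop), with each library from its own animal. Both kinds of PNA were excised at 14 d PO (postoperatively), came from donors that were not tissue-matched, were placed in hosts without immunosuppression, and were handled in hypotonic saline with methylene blue before microsuturing. Only the PEG PNAs were exposed to polyethylene glycol, which joins the membranes of cut axons. The 2 Unop nerves had no surgery, so operation and grafting cannot be told apart from each other in any comparison with them.

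Values are read counts per gene, normalized for library depth by the authors, and are compared between libraries within a gene, not between genes. Depth ranged over 32472925 to 39959620 reads on genes in a library. A difference is given as the mean difference of log2(normalized count + 1) with its standard error (SE) from 1 fit over the 8 libraries, a scale that understates differences of genes with few reads. As a check of the tissue, each of the 6 Schwann cell markers in the table, among them Sox10, S100b, Erbb3 and Cdh19, had at least 1196 normalized counts in every library. Muscle set 2 libraries apart: the 6 skeletal muscle fibre markers in the table summed to 557425 in NC 1 and 192949 in NC 3, against 2501 to 31088 in the other 6 libraries. Results on NC PNAs are therefore given library by library, and the value in NC 2 can be read on its own.

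The cell bodies of the neurons whose axons run in the sciatic nerve lie in the spinal cord, the dorsal root ganglia and the sympathetic ganglia. Messenger RNA for neuronal proteins in nerve tissue can therefore come from RNA carried into the axon, or from glia, immune cells, fat or muscle that make the same transcript. The neurofilament proteins of light, medium and heavy chain (Nefl, Nefm, Nefh), alpha-internexin (Ina) and peripherin (Prph) are the intermediate filaments of neurons and set axon calibre. The remaining members are the deubiquitinating enzyme Uchl1 (PGP9.5, a common stain for nerve fibres), the growth cone protein Stmn2 (SCG10), the neuronal beta-tubulin Tubb3, gamma-synuclein (Sncg, also known from fat cells), and Gad1, an enzyme that makes GABA from glutamate. In bulk tissue, fewer cells or axons of a kind and less RNA in each of them cannot be told apart.

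Promoter sequences from RefSeq (GRCr8) were found for 6 of the 10 members, Uchl1, Gad1, Prph, Sncg, Tubb3 and Ina. Nefl, Nefm, Nefh and Stmn2 had no entry. The 250 bases before the listed start are printed 5′ to 3′ on the strand of the gene for 4 members, because Uchl1 and Gad1 were the members highest in PEG relative to NC PNAs with a promoter entry, and Prph and Sncg were, among the members with an entry, the furthest below Unop nerves in both PNAs. Capitals mark the motif of the TATA box, TATAAA, and that of the GC box, GGGCGG, both searched on either strand.
Uchl1, chr14:41849418-41849667 (- strand): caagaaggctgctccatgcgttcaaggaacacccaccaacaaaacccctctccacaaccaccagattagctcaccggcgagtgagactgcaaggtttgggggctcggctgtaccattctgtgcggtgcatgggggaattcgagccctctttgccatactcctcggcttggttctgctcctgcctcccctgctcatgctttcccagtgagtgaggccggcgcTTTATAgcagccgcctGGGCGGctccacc
Gad1, chr3:75777202-75777451 (+ strand): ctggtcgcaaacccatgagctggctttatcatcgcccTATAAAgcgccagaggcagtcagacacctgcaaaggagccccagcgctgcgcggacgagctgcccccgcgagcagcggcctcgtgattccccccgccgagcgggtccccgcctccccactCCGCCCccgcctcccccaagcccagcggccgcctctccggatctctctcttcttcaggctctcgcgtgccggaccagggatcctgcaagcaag
Prph, chr7:132097039-132097288 (+ strand): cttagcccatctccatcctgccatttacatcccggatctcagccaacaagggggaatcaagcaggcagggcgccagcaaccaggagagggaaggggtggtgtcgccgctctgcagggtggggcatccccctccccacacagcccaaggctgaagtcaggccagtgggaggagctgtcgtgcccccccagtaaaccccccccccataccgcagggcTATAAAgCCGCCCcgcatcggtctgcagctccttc
Sncg, chr16:9711337-9711586 (- strand): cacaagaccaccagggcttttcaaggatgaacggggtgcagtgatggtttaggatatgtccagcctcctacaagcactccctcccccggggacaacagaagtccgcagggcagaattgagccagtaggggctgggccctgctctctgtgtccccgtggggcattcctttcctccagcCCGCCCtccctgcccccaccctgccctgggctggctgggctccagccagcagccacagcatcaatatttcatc
The Prph window held TATAAA 35 to 30 bases before the start, and the Uchl1 window held it on the opposite strand 29 to 24 bases before the start. In the Gad1 window TATAAA lay further out, 213 to 208 bases before the start, and in Sncg there was no match. Among all 33469 promoters of the same length in the table, 12.9% held TATAAA on either strand. GGGCGG was found in the windows of all 6 members with an entry, against 30.5% of all promoters. These windows were also richer in G and C, the only letters of that motif, at 59.6% to 70.8% against a median of 51.2% over all promoters. Promoters of like GC content were not compared. CCAAT occurred in Tubb3 alone among the 6 (34% of all promoters), and neither TGANTCA, the AP-1 motif (6.34%), nor TGACGT, part of the cyclic AMP response element (6.95%), was found in any of the 6. Such matches describe the letters of these windows and were not tested for binding.

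Across the 10 members, 4 had all 3 PEG PNAs above all 3 NC PNAs (Uchl1, Nefm, Sncg and Gad1) and 1 had them all below (Nefh). In 5 members (Nefl, Stmn2, Tubb3, Prph and Ina) the groups overlapped. Over the 16478 genes tested, 25.6% were higher in PEG than in NC PNAs without overlap and 23.3% were lower without overlap. Against Unop nerves, 7 members lay lower in every PEG PNA, and 9 lay lower in every NC PNA. Against Unop nerves, 37.2% of all tested genes were lower and 37.3% higher without overlap in PEG PNAs, and 37.4% were lower and 37.2% higher in NC PNAs. The exceptions against Unop nerves were Tubb3 in both PNAs, and Gad1 and Ina in PEG PNAs. Since the members were chosen on these levels, nothing is read from these counts. All 10 members passed the filter of 10 normalized counts in 2 libraries, Ina only through 2 PEG PNAs.

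**Figure D1:**
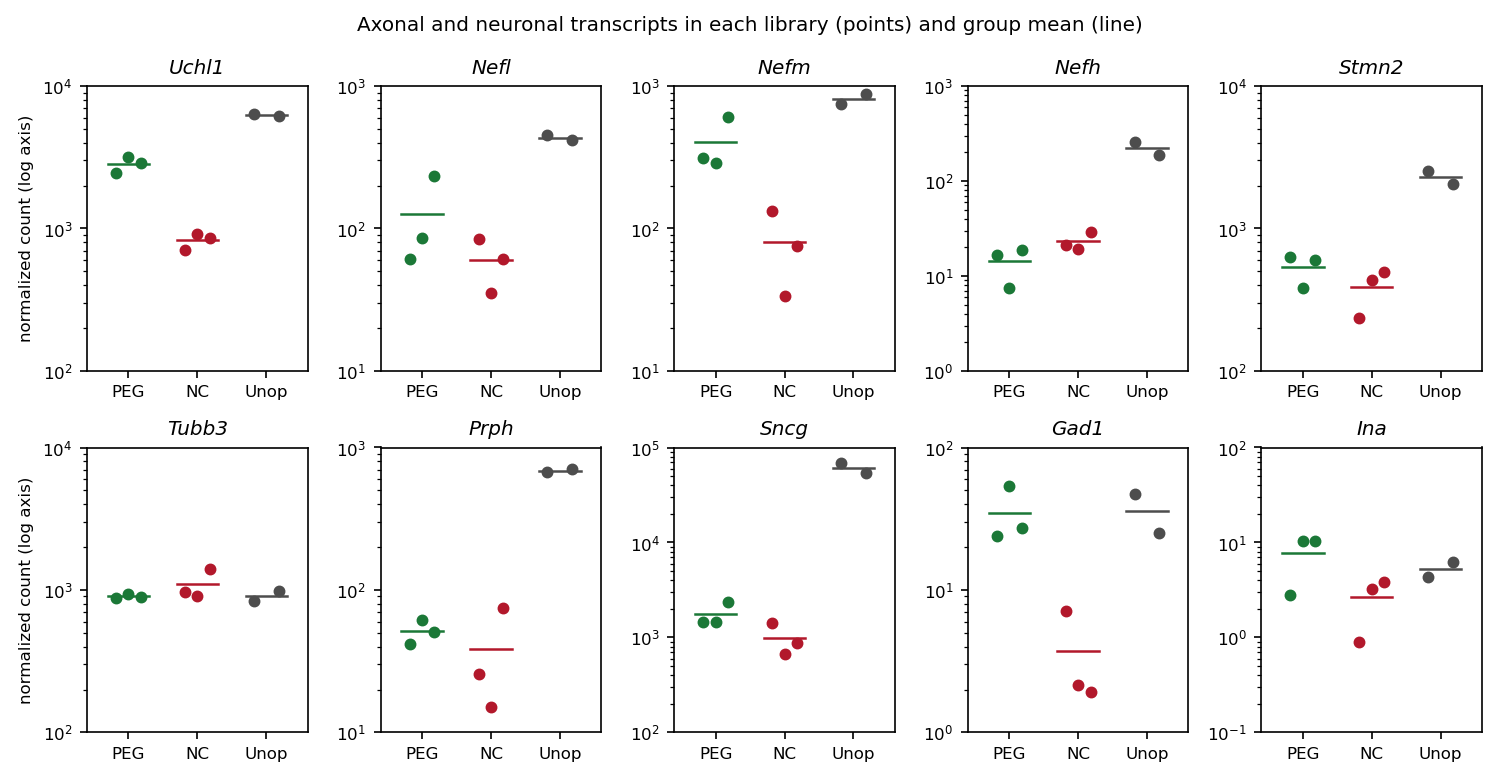
Normalized counts (log axis) of the 10 members, with 1 point per library and a line at the group mean, for PEG PNAs (n = 3), NC PNAs (n = 3) and Unop nerves (n = 2). Uchl1, Nefm and Gad1 show PEG PNAs above NC PNAs, Tubb3 is level across the groups, and Prph and Sncg sit far below Unop nerves in both PNAs.

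Uchl1 (ENSRNOG00000002343) separated all 3 groups. Its normalized counts were 2470, 3180 and 2881 in PEG PNAs, 710, 908 and 856 in NC PNAs, with 6344 and 6155 in Unop nerves. The 3 groups stood in the order Unop, PEG, NC with no library out of place. PEG PNAs averaged 3.45 times the level of NC PNAs (2844 ± 357 against 825 ± 102, SD, n = 3 each), a difference of 1.78 ± 0.12 (log2, SE). They held 45.5% of the Unop level (log2 difference -1.14 ± 0.14), and NC PNAs held 13.2% (-2.93 ± 0.14). In GRCr8 the spans of Uchl1, Nefm and Ina each overlap another gene (Apbb2 for Uchl1, Nt5c2 for Ina), and the strand setting used in counting is not given in the sources used here. The value of NC 2, which had few muscle transcripts, was the highest of the 3 NC values.

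Its relatives among the ubiquitin C-terminal hydrolases, enzymes that trim ubiquitin from proteins, did not follow this order. Uchl3 read 173 to 221 normalized counts in PEG PNAs and 168 to 214 in NC PNAs, with 397 and 320 in Unop nerves. For Uchl5 the ranges were 603 to 667, 613 to 713, and 851 to 934. Both fell relative to Unop nerves in each kind of PNA (limma, adjusted p of 0.0053 and 0.00272 for Uchl3, 0.00503 and 0.0106 for Uchl5, PEG first). Neither passed the test between PEG and NC PNAs (log2 differences 0.09 ± 0.17 and -0.08 ± 0.10). Bap1, the nuclear member of this family, was within 2529 and 2895 in all 8 libraries. The call of Uchl5 in NC PNAs was lost without Unop 1, and with NC 1 and NC 3 left out (adjusted p up to 0.0631 over all alternatives).

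The 3 neurofilament chains differed in how the PNAs stood to each other. Nefm (ENSRNOG00000013916), the medium chain, read 314, 287 and 607 in PEG PNAs, 132, 33.3 and 75.2 in NC PNAs, with 747 and 879 in Unop nerves. Every PEG PNA was above every NC PNA and below both Unop nerves. PEG PNAs averaged 5.02 times NC PNAs (403 ± 177 against 80.3 ± 49.6, SD, n = 3), or 2.44 ± 0.48 on the log2 scale (SE). They were at 49.5% of Unop nerves, where NC PNAs were at 9.87%. With NC 1 and NC 3 left out, a setting chosen after seeing the data, the difference between PEG and NC PNAs was 3.47 instead of 2.44, since NC 2 held the lowest Nefm count of all libraries.

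Nefl (ENSRNOG00000013658), the light chain that all neurofilaments are built on, is the neighbour of Nefm on the same chromosome in GRCr8. Its values were 61.2, 86.0 and 234 in PEG PNAs, 84.0, 35.5 and 60.8 in NC PNAs, with 450 and 420 in Unop nerves. PEG 3 stood well above the other 2 PEG PNAs, as it did for Nefm, and PEG 1 lay below NC 1. The groups overlapped, and the difference of 0.91 ± 0.49 (log2, SE) was less than 2 SE. Both kinds of PNA were below Unop nerves in every library, at 29.2% for PEG and 13.8% for NC PNAs.

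Nefh (ENSRNOG00000008716), the heavy chain that accumulates as axons mature, was the member with the opposite order of the PNAs. It read 16.7, 7.48 and 18.8 in PEG PNAs, 21.4, 19.4 and 28.9 in NC PNAs, with 258 and 188 in Unop nerves. All 3 PEG PNAs lay below all 3 NC PNAs, by -0.74 ± 0.37 (log2, SE), but the closest values, 18.8 in PEG 3 and 19.4 in NC 2, stood on 20 and 18 reads. PEG PNAs held 6.43% and NC PNAs 10.4% of the Unop level.

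As shares of the 3 neurofilament counts, which ignore differences in transcript length, Nefm made up 75.4% ± 4.75 in PEG PNAs, 46.4% ± 8.94 in NC PNAs (SD, n = 3 each), and 51.4% and 59.1% in the 2 Unop nerves. The lowest PEG share (70.6%) was above the highest share of the other 5 libraries (59.1%). Nefh contributed 2.8% ± 1.26 in PEG PNAs and 16.2% ± 6.57 in NC PNAs, with 12.6% and 17.7% in Unop nerves. The ratio of Nefm to Nefl counts was 3.69 ± 1.31 in PEG PNAs, 1.25 ± 0.318 in NC PNAs, with 1.66 and 2.09 in Unop nerves. These shares rest on 407 to 916 reads of the triplet in a PEG PNA, 82 to 266 in an NC PNA, and 1189 and 1355 in a Unop nerve. They come from the counts that chose the members and are given without a test.

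**Figure D2:**
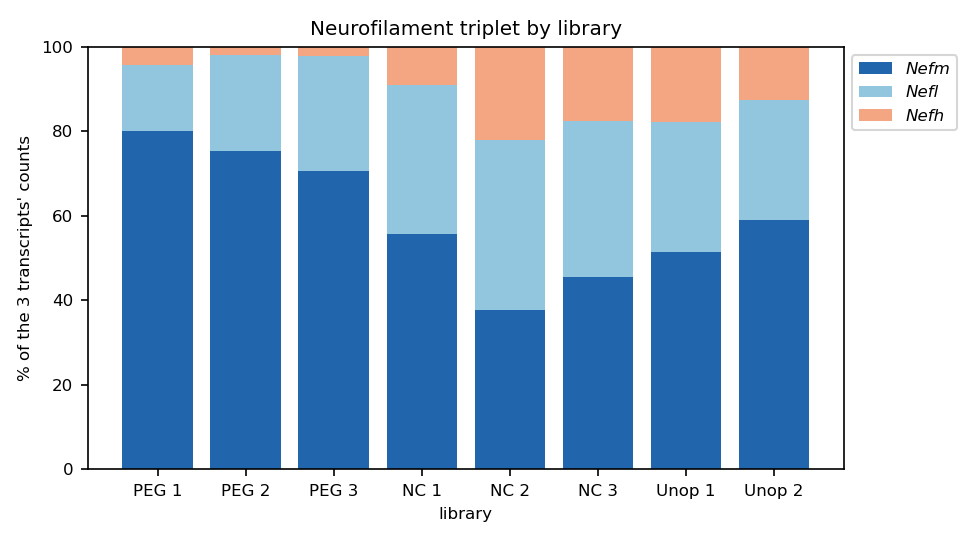
Share of each neurofilament chain in the summed normalized counts of Nefm, Nefl and Nefh (percent, stacked to 100), with 1 bar per library. Nefm takes 70.6% to 80.1% in the 3 PEG PNAs and 37.8% to 59.1% in the other 5 libraries, while Nefh is thinnest in PEG PNAs.

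The other 2 neuronal intermediate filaments, Prph and Ina, showed no separation of the PNAs. Prph (ENSRNOG00000052880), the filament of peripheral and regenerating neurons, read 41.7, 61.7 and 50.7 in PEG PNAs, 25.9, 15.1 and 74.3 in NC PNAs, with 669 and 710 in Unop nerves. PEG values were close together while NC values ran from lowest to highest of the 6 PNAs, so the groups overlapped (0.70 ± 0.50, log2, SE). PEG PNAs were at 7.45% and NC PNAs at 5.57% of Unop nerves. The difference between PEG and NC PNAs was 1.31 without NC 3 and 0.20 without NC 2, and 1.69 with NC 1 and NC 3 both left out.

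Ina (ENSRNOG00000020248) was near the limit of detection, with 3, 11 and 11 reads in PEG PNAs, 1, 3 and 4 in NC PNAs, with 4 and 5 in Unop nerves. No order of the groups can be read at that depth, and the fitted difference between PEG and NC PNAs of 1.21 ± 0.59 (log2, SE) came with overlapping values in every comparison except NC against Unop. There the highest NC value, 3.86 normalized counts, was just below the lowest Unop value, 4.29.

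Filament genes of other cells, taken as a list beside the members, differed in their order of groups. Nes, the nestin filament of precursors and dividing glia, rose in PEG relative to NC PNAs by 1.68 ± 0.15 (log2, SE; limma, adjusted p 0.00048), and Vim, the filament of mesenchymal and glial cells, by 0.93 ± 0.20 (adjusted p 0.0113). PEG values of Nes were 4443, 6352 and 4514, NC values 1399, 1665 and 1671, and Unop values 6385 and 6498, the order of Uchl1 and Nefm. For Nes, PEG PNAs did not pass the test against Unop nerves (-0.36 ± 0.16, adjusted p 0.0924). Gfap, a filament of non-myelinating Schwann cells, fell in both PNAs relative to Unop nerves (-1.94 ± 0.31 in PEG, adjusted p 0.000905, and -2.61 ± 0.31 in NC, adjusted p 0.000126), with a PEG to NC difference of 0.68 ± 0.28 that did not pass (adjusted p 0.104). Des, the muscle filament, was 33528 and 21082 in NC 1 and NC 3 and 7450 in NC 2, against 3469 to 4680 in PEG PNAs. With NC 1 and NC 3 left out, the difference of Des between PEG and NC PNAs went from -2.08 to -0.86 (adjusted p 0.0636). For Vim it was 0.82 in place of 0.93, with an adjusted p of 0.137.

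Stmn2 (ENSRNOG00000011705), which destabilises microtubules in growth cones and is raised by injured neurons, read 628, 385 and 603 in PEG PNAs, 237, 435 and 498 in NC PNAs, with 2513 and 2045 in Unop nerves. The PNAs overlapped (0.50 ± 0.30, log2, SE) and all 6 were far below the Unop nerves. PEG PNAs averaged 23.6% and NC PNAs 17.1% of the Unop level. The NC value lowest for Stmn2 was the muscle-rich NC 1, and PEG 2 lay below both NC 2 and NC 3.

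The stathmin family split in its comparison with Unop nerves. Stmn1, the form of dividing and many other cells, rose in PEG relative to NC PNAs (0.83 ± 0.13, log2, SE; limma, adjusted p 0.00313) and fell in both relative to Unop nerves (adjusted p 2.48e-05 and 2.47e-06). Stmn3, a neuronal form, was read at 9.27, 2.80 and 9.38 in PEG PNAs and 17.9, 10.8 and 6.75 in NC PNAs, against 1851 and 1757 in Unop nerves. That left PEG PNAs at 0.396% and NC PNAs at 0.654% of Unop, the lowest shares among the stathmins. Stmn4, also neuronal, rose in PEG PNAs relative to Unop nerves (376, 567 and 311 against 174 and 80.0, adjusted p 0.00273). Its rise over NC PNAs (adjusted p 0.0325) was lost in 7 of 18 alternatives, including every fit without 1 of the NC PNAs.

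Tubb3 (ENSRNOG00000017209), the beta-tubulin stained as a neuronal marker, was level. Its counts were 883, 930 and 897 in PEG PNAs, 969, 910 and 1414 in NC PNAs, with 841 and 978 in Unop nerves. The 3 groups overlapped in all comparisons, NC 3 was the highest value, and the log2 differences (SE) were -0.25 ± 0.16 for PEG against NC, -0.01 ± 0.18 for PEG against Unop and 0.25 ± 0.18 for NC against Unop. Group means lay within 903 and 1098. Its level in PNAs did not share the deficit seen in the neurofilaments, Stmn2, Prph and Sncg.

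Other beta-tubulins differed widely from it. Tubb2b, an isotype of developing and growing neurons that glia make too, read 9202, 11929 and 8746 in PEG PNAs, 3547, 4924 and 3745 in NC PNAs, with 978 and 575 in Unop nerves, an order of PEG, NC, Unop. It rose in both PNAs over Unop nerves (3.72 ± 0.24 and 2.42 ± 0.24, log2, SE; limma, adjusted p 7.59e-06 and 4.68e-05) and in PEG over NC PNAs (1.29 ± 0.22, adjusted p 0.00406), the last lost with NC 1 and NC 3 left out (adjusted p 0.0582). Tubb4a, an isotype of myelinating cells and mature neurons, showed the order Unop, PEG, NC, with 6594 and 9508 in Unop nerves, 445, 699 and 499 in PEG PNAs, and 104, 164 and 73.3 in NC PNAs. It rose in PEG relative to NC PNAs by 2.31 ± 0.30 (adjusted p 0.0015). The broadly expressed Tubb6 rose in PEG over NC PNAs by 0.66 ± 0.14 (adjusted p 0.0101) and over Unop nerves by 1.63 ± 0.16 (adjusted p 5.29e-05). Smaller rises of Tubb2a, Tubb4b and Tubb5 in PEG over NC PNAs (0.40, 0.42 and 0.49) passed with adjusted p between 0.0272 and 0.041, and each was lost in at least 4 of 18 alternatives.

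Sncg (ENSRNOG00000058006) showed the largest gap to Unop nerves of the 10 members. Its counts were 1463, 1443 and 2386 in PEG PNAs, 1409, 676 and 871 in NC PNAs, with 68538 and 54543 in Unop nerves. PEG PNAs held 2.87% and NC PNAs 1.6% of the Unop level, log2 differences of -5.16 ± 0.32 and -6.02 ± 0.32 (SE). Between the PNAs the difference was 0.87 ± 0.29, with the lowest PEG value (1443) just above the highest NC value (1409), and it was 1.34 with NC 1 and NC 3 left out. The 7 adipocyte markers summed to 101795 and 58470 in the Unop nerves, 4211 to 9710 in PEG PNAs and 3830 to 5724 in NC PNAs. In the PNAs most of this sum was Fabp4 (mean 5912 in PEG and 3714 in NC PNAs). All 7 were lower in both PNAs than in Unop nerves by the test, where 28.6% of all tested genes were lower and 29.1% higher in PEG, and 32.3% lower and 32.2% higher in NC PNAs. Between the PNAs, unlike Sncg, 4 of the 7 were lower in PEG than in NC PNAs and none was higher. Of all tested genes, 13.9% were lower and 15.0% higher there. Adipoq, the defining secreted product of fat cells, read 238, 264 and 288 in PEG PNAs, 967, 408 and 434 in NC PNAs, with 35084 and 18102 in Unop nerves. The part of fat cells in the Sncg difference was not tested.

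The tested genes whose pattern over the 8 libraries was most like that of Sncg were Adrb3 and Gpat3, both at r = 0.999 (Pearson, log2 values). Adrb3 is the beta-3 adrenergic receptor of fat cells and Gpat3 an acyltransferase of triglyceride synthesis. Adrb3 had a group mean of 1.25 for PEG PNAs, 0.298 for NC PNAs and 74.8 for Unop nerves. A gap between Unop nerves and PNAs was not confined to fat genes. The Schwann cell marker S100b stood at 10.2% of Unop nerves in PEG PNAs and 3.9% in NC PNAs. Whether the likeness to Sncg goes beyond that gap was not tested. Sncb, the beta-synuclein found chiefly in nerve terminals, was lower in both PNAs than in Unop nerves too (limma, adjusted p 0.00176 and 0.000138). It read 4.67 to 7.42 in PEG PNAs and 0 to 2.68 in NC PNAs against 63.3 and 72.5. Sncb passed the filter only through the Unop nerves, where it was high, so these falls are not independent support. Its call between the PNAs (1.65 ± 0.53, log2, SE, adjusted p 0.0489) was lost in 14 of 16 alternatives.

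Gad1 (ENSRNOG00000000007) had few reads but the widest ratio between PEG and NC PNAs of the members. Its reads were 26, 57 and 29 in PEG PNAs, 8, 2 and 2 in NC PNAs, with 44 and 20 in Unop nerves. As normalized counts these were 24.1, 53.3 and 27.2, then 7.15, 2.15 and 1.93, then 47.2 and 25.0. Every PEG value lay above every NC value and the PEG and Unop ranges overlapped. PEG PNAs averaged 9.31 times NC PNAs (34.9 ± 16.0 against 3.74 ± 2.95, SD, n = 3), a log2 difference of 3.00 ± 0.52 (SE), which was 1.83 with a pseudocount of 8 in place of 1. The PEG mean was 96.5% and the NC mean 10.4% of the Unop mean.

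Gad2, the other glutamate decarboxylase, was read 4, 5 and 1 times in PEG PNAs, 7, 1 and 2 times in NC PNAs, and had 0 reads in both Unop nerves, which allows up to 3 reads in each. Slc32a1, the vesicular carrier that loads GABA in inhibitory neurons, had 0 reads in every library, with the same allowance. Among the 8 tested genes of GABA handling other than Gad1, 2 rose in PEG relative to NC PNAs and none fell. Abat, which breaks GABA down, was 1 of them (1.09 ± 0.34, log2, SE; limma, adjusted p 0.0442, lost in 8 of 18 alternatives). Over all tested genes, 15.0% rose in that comparison and 13.9% fell. Abat read 64.0, 90.7 and 76.9 in PEG PNAs, 49.1, 46.3 and 19.3 in NC PNAs, with 1850 and 1802 in Unop nerves. Relative to Unop nerves 5 of the 8 fell in PEG and 5 in NC PNAs, among them the transporter Slc6a13 (GAT-2) and the receptor subunit Gabbr1. Gabra2, which reached 10 normalized counts only in the PEG PNAs and NC 3, rose in PEG PNAs (2.53 ± 0.50, adjusted p 0.00279). In either direction 75% of the list was called in PEG and 62.5% in NC PNAs, against 57.7% and 64.5% of all tested genes.

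**Figure D3:**
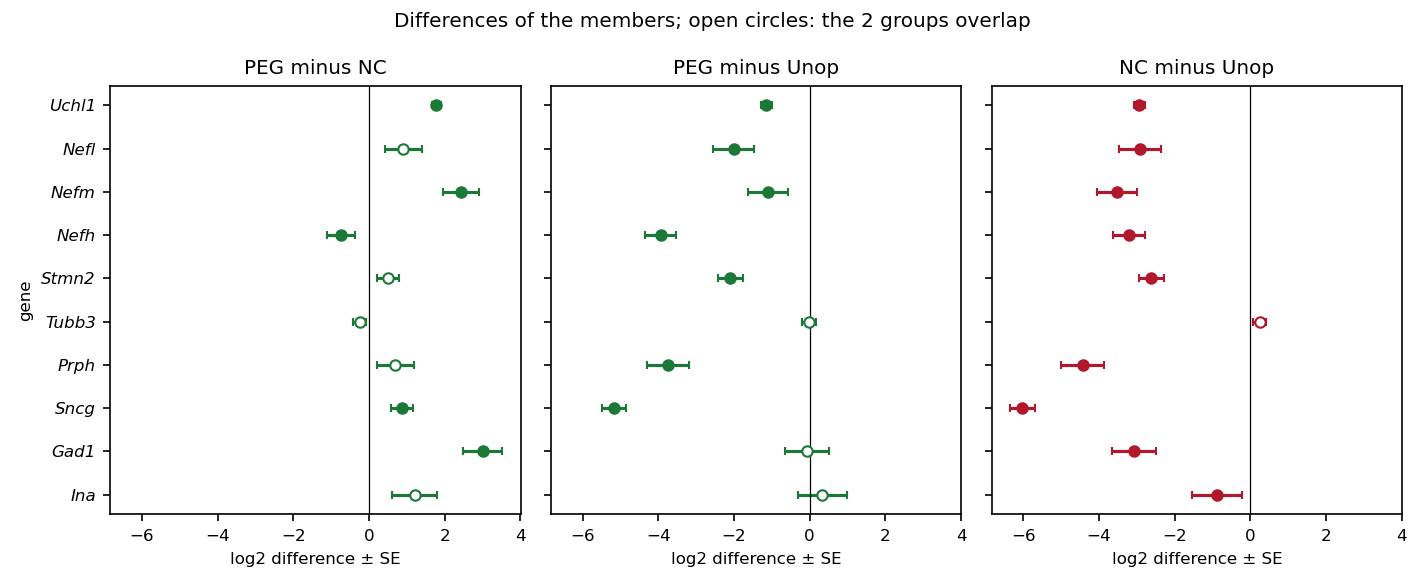
Differences of mean log2(normalized count + 1) between groups for the 10 members, with bars of 1 SE and open circles where the values of both groups overlap. PEG minus NC runs from -0.74 for Nefh to 3.00 for Gad1, PEG minus Unop from -5.16 for Sncg to 0.34 for Ina, and NC minus Unop from -6.02 for Sncg to 0.25 for Tubb3.

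The members differed in their place between the control groups. In Uchl1 and Nefm, PEG PNAs stood between NC PNAs and Unop nerves in every library, at 45.5% and 49.5% of the Unop mean. Gad1 in PEG PNAs overlapped Unop nerves, with a log2 difference of -0.07 ± 0.58 (SE). In Nefh, Prph and Sncg both PNAs lay at or below 10.4% of the Unop mean. Stmn2 and Nefl were intermediate, at 13.8% to 29.2% of Unop nerves.

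PEG 3 carried the highest Nefl, Nefm, Nefh and Sncg counts among PEG PNAs, but not the highest Uchl1, Stmn2, Tubb3, Prph or Gad1. Around their group means, Nefl and Nefm deviated together over the 8 libraries (r = 0.85), as did Nefm and Sncg (r = 0.91), while Uchl1 and Nefm did not (r = -0.56). With the group differences left in, r was 0.88 for Nefl and Nefm, 0.78 for Nefm and Sncg, and 0.9 for Uchl1 and Nefm. On that scale, which mostly reflects the groups, the median of the 45 pairwise correlations of the members was 0.61. These values describe 8 libraries in 3 groups, which share depth normalization, and carry no test. PEG 3 also had the largest sum of adipocyte markers among PEG PNAs (9710, of which Fabp4 was 8780) and of Schwann cell markers (67918), whose part in these values was not tested.

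Genes with the most similar pattern were named for each member by the highest Pearson r over the 8 libraries. For Uchl1 they were Cnnm2 (r = 0.997) and Fbxo44 (0.994), the latter with group means of 119, 45.8 and 212 in PEG, NC and Unop. Nefm was nearest to Tanc1 (0.984) and Dusp19 (0.981), and Nefl to Lpl, lipoprotein lipase (0.977), and Rnasek (0.974). Nefh had Zfp764 (0.993) and Cbs (0.992), Stmn2 had Astn2 and Nr1h3 (both 0.993), and Prph had Dusp3 (0.994) and Trhr (0.992). For Gad1 the nearest genes were Nid2, a basement membrane nidogen (0.992, with means of 3440, 2178 and 3428), and Wfikkn2 (0.99). Tubb3 had weaker likenesses, to Fbxo45 (0.907) and Foxn3 (0.903), and so did Ina, to Mirlet7i (0.951) and Lexm (0.933). The 8 libraries lie in 3 groups and share their depth normalization, and these values carry no test. No member was the nearest gene of another.

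Schwann cell and immune markers moved with the groups beside the members. The 6 Schwann cell markers summed to 61478 to 67918 in PEG PNAs, 22783 to 59399 in NC PNAs, with 1342081 and 1580540 in Unop nerves. Of the 6, 4 rose in PEG relative to NC PNAs, where 15.0% of all tested genes rose. The 9 markers of repair Schwann cells summed to 27065 to 33998 in PEG PNAs, 13290 to 15502 in NC PNAs, with 6373 and 5219 in Unop nerves. The 7 T cell markers ran the other way, from 1751 to 4961 in PEG PNAs to 20210 to 37933 in NC PNAs, with 394 and 206 in Unop nerves. All 7 fell in PEG relative to NC PNAs, where 13.9% of all tested genes fell. Among NC PNAs, Nefm stood in the order of the skeletal muscle markers (132 in NC 1, 75.2 in NC 3 and 33.3 in NC 2), and Uchl1 in the reverse order (710, 856 and 908). NC 1 differed in more than muscle. Its 8 markers of myelinating Schwann cells summed to 66504, against 18955 in NC 2, 14361 in NC 3 and 38661 to 47648 in PEG PNAs. The part of these cells in the member levels was not tested.

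**Figure D4:**
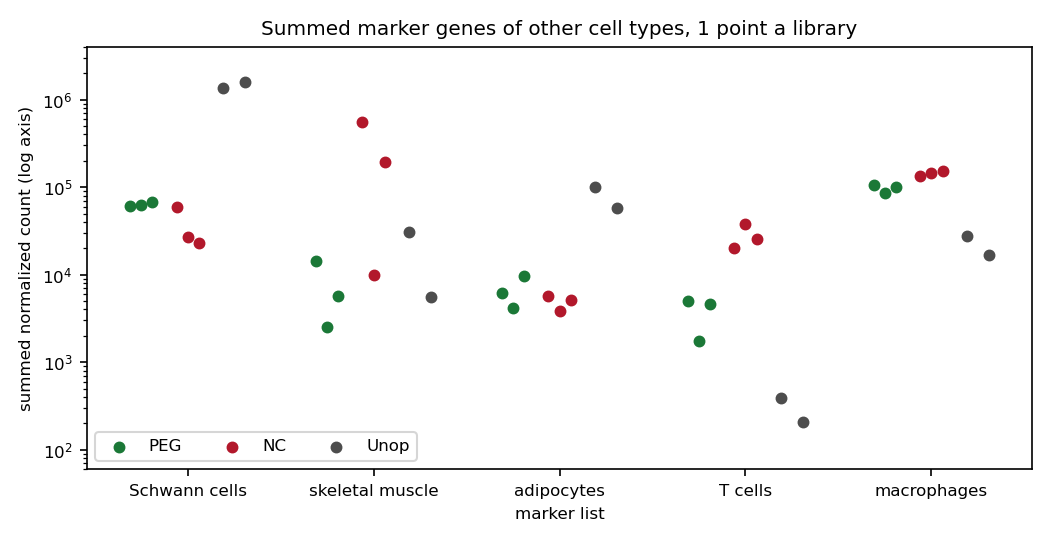
Summed normalized counts (log axis) of marker genes of Schwann cells, skeletal muscle, adipocytes, T cells and macrophages, with 1 point per library. NC 1 and NC 3 stand apart in skeletal muscle (557425 and 192949), and Unop nerves stand apart in Schwann cell and adipocyte markers.

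To place the members among other neuronal genes, 6 lists of 105 further genes were used, of which 103 were in the table and 74 passed the filter. Between PEG and NC PNAs, 23 of the 74 rose and 3 fell (limma, adjusted p below 0.05), where 15.0% of all tested genes rose and 13.9% fell. The median difference was 0.52 (log2) against 0.00 over all tested genes. Relative to Unop nerves, 21 rose and 38 fell in PEG PNAs (median -1.14, with 57.7% of all tested genes passing in either direction), and 13 rose and 41 fell in NC PNAs (median -1.56, with 64.5% of all tested genes passing). Both comparisons with Unop share the same 2 nerves. Nrsn1, Sncb, Chga, Chgb, Trpa1, Dbh and Vip reached 10 normalized counts only in those 2 nerves. They passed the filter through the group where they were high, so their falls in these counts are not independent support. The same holds for Snap25 and Cplx1, which reached 10 in the Unop nerves and NC 1 alone and would not have passed without the Unop nerves. Among the rises between the PNAs, Nppb reached 10 only in PEG PNAs and Elavl2 only in PEG PNAs and Unop 1. Neither would have passed the filter without the PEG PNAs, so these rises are not independent support. That of Sncb was lost in 14 of 16 alternatives. Without PEG 2, the PEG to NC count was 13 rising and 3 falling.

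Genes of the neuronal cytoskeleton and growth cone gave 10 of the 23 rises, and none of the 20 in this list fell in PEG relative to NC PNAs. That is 50% of the list called, against 28.9% of all tested genes. Map1b, a microtubule protein of growing axons, read 9012, 10378 and 8897 in PEG PNAs, 2670, 2650 and 2871 in NC PNAs, with 6320 and 9986 in Unop nerves (1.79 ± 0.16, log2, SE, adjusted p 0.000515). Its order was that of Gad1, with PEG PNAs overlapping Unop nerves. Map2, the dendritic microtubule protein, also rose (1.40 ± 0.26, adjusted p 0.00627). Kinesin motors of axonal transport stayed low in both PNAs: Kif5a read 148 to 205 in PEG PNAs and 174 to 219 in NC PNAs against 1391 and 1965, and Kif5c 166 to 205 and 164 to 250 against 2169 and 2086. The growth cone genes Dcx, Dpysl3, Basp1 and Crmp1 rose in both PNAs over Unop nerves, by 2.59 to 3.87 in PEG and 1.86 to 3.22 in NC PNAs (log2). Other members of this family and Gap43 did not rise in both: Dpysl5 fell in both (-1.80 ± 0.35 and -3.02 ± 0.35, adjusted p 0.0026 and 0.000114), and Gap43 and Dpysl4 rose in PEG PNAs (adjusted p 0.0483 and 0.0177) but did not pass in NC PNAs (0.35 ± 0.37 and 0.92 ± 0.39, adjusted p 0.43 and 0.0686). Across this list 9 genes rose and 9 fell in PEG relative to Unop nerves, and 5 rose and 11 fell in NC. These are 90% and 80% of the list called, against 57.7% and 64.5% of all tested genes.

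Of the RNA-binding proteins, granins and neuron-enriched enzymes, 17 of 22 were tested, and 5 rose in PEG relative to NC PNAs while none fell (29.4% of the list called, against 28.9% of all tested genes). Among these were Nsg1, an endosomal protein of neurons (1.36 ± 0.15, log2, SE, adjusted p 0.000897; 529 ± 89.4 in PEG and 204 ± 27.1 in NC, SD, n = 3, with 1425 and 1417 in Unop), and Thy1 (1.17 ± 0.19, adjusted p 0.0034), a surface protein of neurons, fibroblasts and T cells. Relative to Unop nerves the list gave 8 falls and 4 rises in PEG and 10 falls and 4 rises in NC PNAs. These are 70.6% and 82.4% of the list, against 57.7% and 64.5% of all tested genes. Nrsn1 had at most 2.80 normalized counts in any PNA against 117 and 136 in Unop nerves, and Chga, the granin of dense-core vesicles, at most 1.87 against 96.6 and 120. Nrsn1 and Chga passed the filter only through the Unop nerves. Rbfox1, a splicing factor that muscle also uses, read 1277 in NC 1 and 760 in NC 3, and 17.5 to 83.7 in the other libraries.

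Of 13 presynaptic vesicle genes tested, 3 rose and 1 fell in PEG relative to NC PNAs, or 30.8% of the list against 28.9% of all tested genes. Syt4, a synaptotagmin that injury and activity induce, read 444, 363 and 292 in PEG PNAs against 8.94, 26.9 and 28.0 in NC PNAs, and at most 20.4 in Unop nerves (4.18 ± 0.46, log2, SE, adjusted p 0.000897). Cplx2 rose by 0.99 ± 0.15 (adjusted p 0.0024). Snap25, a core fusion protein of nerve terminals, had at most 1.88 normalized counts in PEG PNAs and 13.4 in NC PNAs, against 168 and 151 in Unop nerves. Snap25 and Cplx1 would not have passed the filter without the Unop nerves, so their falls are not independent support. Relative to Unop nerves 6 fell and 3 rose in PEG PNAs, and 7 fell and 1 rose, Sv2a, in NC PNAs. These are 69.2% and 61.5% of the list, near the 57.7% and 64.5% of all tested genes.

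Genes that mark sensory, autonomic and motor neurons were thinly read, since 13 of the 24 in the table did not pass the filter and 6 had at most 3 reads in every library. Of the 11 tested, Ret and Runx3 fell and Trpm8 rose in PEG relative to NC PNAs, which is 27.3% of the list against 28.9% of all tested genes. The call of Trpm8 (1.09 ± 0.32, log2, SE, adjusted p 0.0364) was lost in 6 of 18 alternatives, among them each fit without 1 of the PEG PNAs. Ret, a receptor subunit for GDNF, was 71.9 ± 20.9 in PEG PNAs and 204 ± 29.6 in NC PNAs (SD, n = 3), with 233 and 301 in Unop nerves (-1.52 ± 0.25, log2, SE, adjusted p 0.00373). Runx3, a factor of proprioceptive neurons that T cells also use, was 83.2 to 139 in PEG PNAs, 317 to 494 in NC PNAs, with 12.9 and 7.50 in Unop nerves, in the order of the T cell markers. Trpv1, Ntrk2 and Dbh fell in both PNAs relative to Unop nerves, and 7 of the 11 fell in PEG and 6 in NC PNAs. Among these falls, Dbh and Trpa1 passed the filter only through the Unop nerves. In either direction 81.8% of the list was called in PEG and 72.7% in NC PNAs, against 57.7% and 64.5% of all tested genes.

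Only 5 of the 10 neuropeptide genes were tested. Gal, the galanin precursor made by injured sensory neurons and by some glia, rose in PEG relative to NC PNAs by 2.31 ± 0.29 (log2, SE, adjusted p 0.00133), with 90.8, 155 and 77.9 against 16.1, 21.5 and 23.2, and 333 and 318 in Unop nerves. That order, Unop, PEG, NC, was the order of Uchl1 and Nefm. Nppb rose too (2.03 ± 0.44, adjusted p 0.0109), though its NC values were 5.79 to 8.04 and the call was lost with NC 1 and NC 3 left out. Nppb passed the filter only through the PEG PNAs, where it was high, so this rise is not independent support. Calca, the CGRP precursor of sensory axons, read 9.38 to 26.9 in PEG PNAs, 20.6 to 132 in NC PNAs, with 94.4 and 75.0 in Unop nerves, with no call between the PNAs (adjusted p 0.0835).

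**Figure D5:**
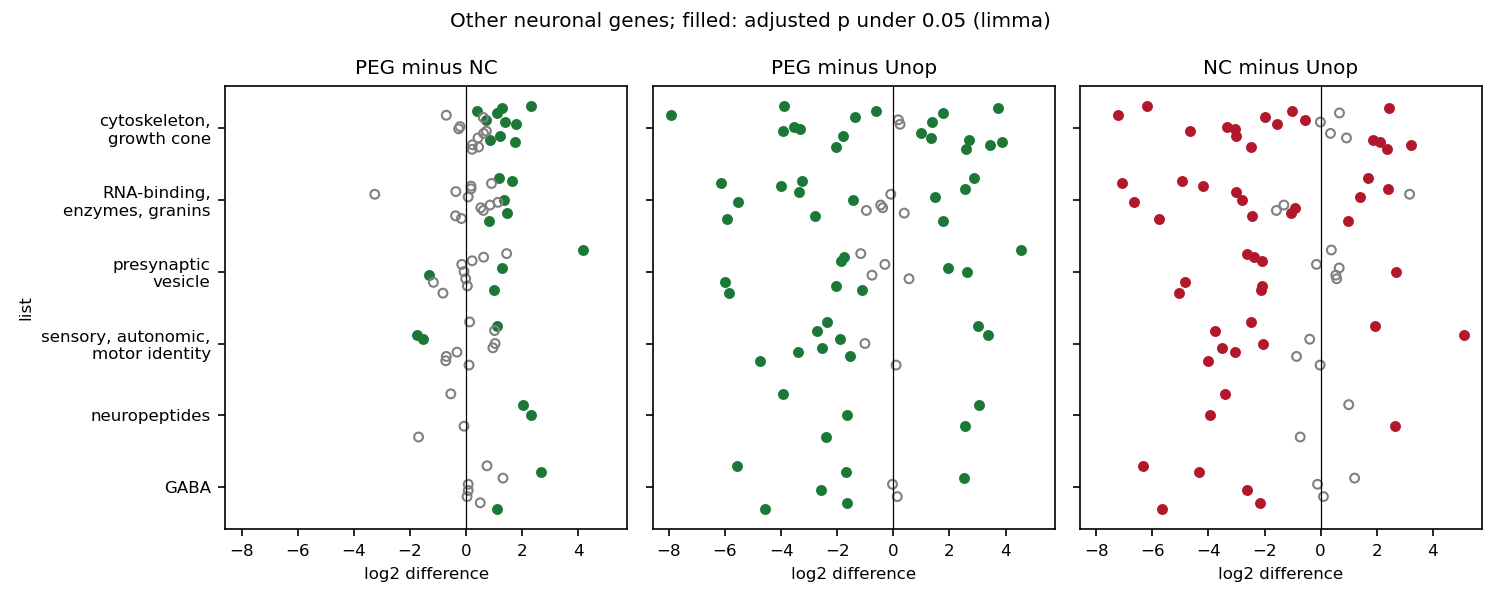
Log2 differences between groups of the 74 tested neuronal genes other than the members, in 6 lists, with filled points at an adjusted p below 0.05 (limma) and open points otherwise. Between PEG and NC PNAs 23 filled points lie to the right and 3 to the left, and relative to Unop nerves falls outnumber rises in both PNAs (38 against 21 in PEG, 41 against 13 in NC). Some of these falls are of genes that passed the filter only through the Unop nerves. Of the rises between the PNAs, those of Nppb and Elavl2 are of genes that would not have passed without the PEG PNAs.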

How the data were processed

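Whole pieces of sciatic nerve were minced for total RNA, and poly-A libraries (TruSeq stranded mRNA) were sequenced as paired-end reads. The authors mapped reads to Rnor_6.0 (TopHat2), made gene counts (HTSeq) and divided these by the size factors of DESeq2 (versions not given in the sources used here). The deposited signal is therefore a normalized read count, and 100% of the values were whole reads within 0.001 after multiplication by 1 factor per library (0.7995 to 1.119). The authors' own fold changes and p-values per comparison were not used. Reads on genes per library ranged from 32472925 to 39959620, which limits genes with few reads.

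The 16478 genes that reached 10 normalized counts in 2 or more libraries were fitted with limma 3.58.1 (trend, R 4.3.3) on log2(normalized count + 1) over the 8 libraries in 3 groups, with Benjamini-Hochberg adjustment per comparison and calls at an adjusted p below 0.05. Alternatives were edgeR 4.0.16 and DESeq2 1.42.0 on the recovered reads, TMM rescaling, no filter or a filter of 50 counts, a pseudocount of 8, a robust fit, only the 2 groups compared, a replicate block, a log2 threshold of 1, each library left out, and NC 1 with NC 3 left out. Tested on simulated data for PEG against NC PNAs (16478 genes), limma recovered 200 of 200 genes changed by 2 on the log2 scale, with 7 false calls. The changed genes were drawn from well-read genes only. Every gene was given the same dispersion, no other gene was changed, and no library was made to stand apart. Recovery of genes with few reads, or with a spread like that of NC PNAs, was not tested.

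The members and the lists were chosen with earlier results of these data known. Members therefore carry no p-value. In each list the called genes of smallest adjusted p in each direction (up to 4), all paralogs of members in fixed families, and the 2 genes most correlated with each member could be named, and genes named beyond that were chosen after their values were seen. Sv2b, Slc18a3 and some marker genes had no row under that symbol. Promoters are RefSeq sequences of GRCr8, not the build of the files, so other coordinates of that table are not given. Some genes of the lists are not reported here by name. Figures were drawn with matplotlib 3.10.9.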

Additional observations from a re-analysis of the deposited data

How the results depend on the processing

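The sign of 28 of the 30 member differences was the same in every alternative that gave a value. The exceptions were Tubb3 and Gad1 in PEG against Unop, which lay near 0 and changed sign in 4 alternatives each (Tubb3 between -0.11 and 0.10, Gad1 between -0.51 and 0.38, log2). With NC 1 and NC 3 both left out, chosen after seeing the data, NC minus Unop was -4.56 for Nefm, -5.43 for Prph and -6.50 for Sncg, and with a pseudocount of 8 it was -1.89 for Gad1. With a filter of 50 counts, Gad1 and Ina had no value, and Ina had none without PEG 2 or PEG 3. The counts of all genes called (4763 for PEG against NC, 9513 for PEG against Unop, 10627 for NC against Unop) were 1903, 5326 and 6359 with a log2 threshold of 1. With edgeR on the recovered reads they were 4977, 9454 and 10586, and with DESeq2 5540, 9533 and 10612. Leaving out 1 library at a time gave counts from 2749 to 4975, 7927 to 9682 and 9095 to 10286. The count for PEG against NC was 2749 without PEG 2 and 3132 without PEG 3. Calls among the other neuronal genes (26, 59 and 54) ran from 16 to 30, 47 to 60 and 45 to 55 with 1 library left out, and the 16 came without PEG 2. With NC 1 and NC 3 both left out, where NC 2 is assumed to vary like the other groups, 23 (PEG against NC) and 52 (NC against Unop) were called. The median correlation between members with group differences left in (0.61) ran from 0.56 to 0.74, the highest without PEG 2. Of 129 calls of named genes, 104 held in every alternative that gave a value, 25 were lost in at least 1, and none changed sign. The log2 threshold of 1 was applied only to the counts of genes called, not to these calls. Held calls with a smaller difference, such as Tubb6 in PEG against NC PNAs (0.66), would not meet it.

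Libraries with the same replicate number did not all deviate together (correlations of their deviations of 0.108, 0.109 and -0.0502 between PEG and NC, 0.154 and 0.136 between PEG and Unop, and 0.152 and 0.157 between NC and Unop, the comparisons with Unop having 2 pairs each), so the numbers were not taken as pairs. With replicate number as a block, 4165, 8893 and 10009 genes and 25, 59 and 57 other neuronal genes were called in PEG against NC, PEG against Unop and NC against Unop. Depth limits Ina, Gad1, Nefh and the neuron identity genes, which rest on few reads.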
